A study of Mus musculus with 34 samples.

Results

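The core of the machinery that licenses cells to leave the G1 phase was examined in the RNA of E11.5 mouse limb buds: the D-type cyclins (*Ccnd1*, *Ccnd2*, *Ccnd3*), their kinases (*Cdk4*, *Cdk6*), a pair of CDK inhibitors (*Cdkn1b*, *Cdkn2c*), a pair of pocket proteins (*Rb1*, *Rbl1*) and the transcription factor *E2f1*. These 10 genes were taken by symbol from a table of 22040 genes, and all 10 passed the filter on low values, a mean of at least 0.5 FPKM (fragments scaled to the length of the exons and the size of the library), which 12305 genes passed. The study compared limb buds of embryos labelled Hnrnpk WT with limb buds labelled Hnrnpk CKO, in which the Prrx1-Cre transgene deletes floxed *Hnrnpk*, the gene of an RNA- and DNA-binding protein. Of its 34 samples, the 3 WT and 3 CKO RNA-seq libraries are described here. Prrx1-Cre acts in limb bud mesenchyme and not in the overlying ectoderm, its activity in the hindlimb is incomplete, and the sex of the embryos was not identified. Whether the WT embryos carried a floxed allele or the Cre is not given in the sources used here, nor is the number of embryos behind a library, so *p* values measure only the spread between these libraries.

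In cells that receive growth signals, D-type cyclins bind CDK4 or CDK6, and the active kinases phosphorylate the pocket proteins RB1, p107 (*Rbl1*) and p130 (*Rbl2*). Pocket proteins otherwise hold E2F factors, so that phosphorylation releases E2F to switch on the genes of DNA replication. The INK4 inhibitors, among them p18 (*Cdkn2c*), bind CDK4 and CDK6 themselves, whereas the CIP/KIP inhibitors p27 (*Cdkn1b*) and p21 (*Cdkn1a*) bind cyclin-CDK complexes. In the limb bud this machinery serves the proliferating mesenchyme that builds the skeleton, and much of its control lies in protein stability and phosphorylation, which RNA does not measure.

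In the WT libraries *Hnrnpk* stood at 193, 195 and 185 FPKM, against 127, 142 and 135 FPKM in the CKO libraries. No CKO library reached the lowest WT library, and the log2 fold change of -0.50 (SE 0.13) did not pass the test over all genes (limma, Benjamini-Hochberg adjusted *p* = 0.334, and 0.0575 with the replicate number as a block). It passed with replicates 2 and 3 alone (adjusted *p* = 0.0377) and in limma voom on recovered reads with the replicate block (0.0223), but not in voom without the block (0.286). Only some exons of *Hnrnpk* are floxed, whereas these values count the whole gene, so they do not measure the deletion itself. The paper reported efficient loss of Hnrnpk in CKO limb buds by western blot and qPCR. Library sizes, estimated from the low FPKM values and exon lengths as described below, ran from 18026051 to 23935504. In bulk RNA, fewer cells of a type and less RNA per cell cannot be told apart. The 9 limb mesenchyme markers summed to 383 to 399 FPKM in WT and 331 to 375 FPKM in CKO, none at 0. Single markers of these 9 ran from a log2 fold change of -0.93 (*Tbx5*) to 0.25 (*Pitx1*). In limma *Tbx5* had an adjusted *p* of 0.358, and of 0.0073 with the replicate block. Globin genes took 11.7% to 32.4% of the summed FPKM, and the first principal component, with 52.6% of the variance, set replicate 1 of both groups apart from the other libraries. Summed markers of muscle precursors (7 genes) ranged from 18.5 to 32.9 FPKM in WT and 31.0 to 39.1 FPKM in CKO, those of endothelium (6) from 21.0 to 30.3 and 14.97 to 24.1, those of macrophages (6) from 20.7 to 23.9 and 20.3 to 29.1, those of ectoderm and ridge (8) from 49.3 to 80.8 and 54.2 to 82.7, those of neural crest (5) from 3.28 to 7.94 and 6.56 to 8.29, and those of cartilage precursors (5) from 78.1 to 115 and 69.1 to 88.0. None of these markers was at 0 in all libraries.

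The end point of the pathway is DNA sequence that E2F can read, so the promoters that bear on its output are shown first. Windows of 300 bases, 250 before and 50 after the transcription start, were searched on both strands for 4 words of the E2F motif, TTTCCCGC, TTTCGCGC, TTTGCCGC and TTTGGCGC. Of 32851 mouse promoters in the RefSeq table (GRCm38.p6), 744 (2.26%) held at least 1 word. Among the 10 genes, 7 had an entry, and *Rbl1* alone held a word, whose first base lay at -18 from the start. The 20 replication genes used below as E2F targets had 17 entries, and 7 of these held a word (*Mcm3*, *Mcm5*, *Mcm6*, *Mcm7*, *Cdc6*, *Cdt1* and *Pola1*). The RefSeq entry of *E2f1* begins 466 bases from the GENCODE start and held no word. The window at the GENCODE start, read from the same genome build, held 2, at 4 and 17 bases after the start. Only *E2f1* was read again in this way. The entries of *Cdk6* and *Cdkn2c* lay 2408 and 433 bases from their GENCODE starts, and *Ccnd1*, *Ccnd2* and *Rb1* had no entry. None of these was read from the genome, so words at their GENCODE starts are not known here. These matches describe letters in a window and are not evidence of binding. *Mcm6* held 3 words and *Mcm7* held 2, and their groups overlapped in FPKM. *Mcm2* and *Mcm10* held no word and were higher in every CKO library as deposited. A link between words and changes was not tested, and the promoters printed were picked with the values known. Below are the promoters of *E2f1* (chr2:154569843-154570142, minus strand), the gene that was lower in every CKO library, of *Rbl1* (chr2:157204485-157204784, minus strand), and of *Mcm3* (chr1:20820263-20820562, minus strand) and *Mcm5* (chr8:75109259-75109558, plus strand), replication genes that were higher in every CKO library as deposited. Capitals mark the E2F words in either orientation, 1 or 2 per promoter, and in *Mcm5* 2 words on opposite strands overlap.
E2f1: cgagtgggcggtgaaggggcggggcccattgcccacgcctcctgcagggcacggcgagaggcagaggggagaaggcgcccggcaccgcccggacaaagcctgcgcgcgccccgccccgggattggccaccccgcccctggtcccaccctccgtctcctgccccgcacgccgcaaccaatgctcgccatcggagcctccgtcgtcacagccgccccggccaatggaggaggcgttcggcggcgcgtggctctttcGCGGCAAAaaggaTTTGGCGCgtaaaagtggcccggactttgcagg
Rbl1: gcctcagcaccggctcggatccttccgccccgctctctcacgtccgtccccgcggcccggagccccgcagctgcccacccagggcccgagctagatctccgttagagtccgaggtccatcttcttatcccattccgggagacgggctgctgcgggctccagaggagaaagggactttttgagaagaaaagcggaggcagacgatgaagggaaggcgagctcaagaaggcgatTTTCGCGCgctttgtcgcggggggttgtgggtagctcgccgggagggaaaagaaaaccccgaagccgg
Mcm3: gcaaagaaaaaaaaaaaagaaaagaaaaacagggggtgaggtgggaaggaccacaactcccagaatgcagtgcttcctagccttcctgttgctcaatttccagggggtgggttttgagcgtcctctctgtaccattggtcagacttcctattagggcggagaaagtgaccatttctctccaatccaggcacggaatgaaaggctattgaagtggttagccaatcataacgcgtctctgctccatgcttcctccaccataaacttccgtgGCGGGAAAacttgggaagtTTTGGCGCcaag
Mcm5: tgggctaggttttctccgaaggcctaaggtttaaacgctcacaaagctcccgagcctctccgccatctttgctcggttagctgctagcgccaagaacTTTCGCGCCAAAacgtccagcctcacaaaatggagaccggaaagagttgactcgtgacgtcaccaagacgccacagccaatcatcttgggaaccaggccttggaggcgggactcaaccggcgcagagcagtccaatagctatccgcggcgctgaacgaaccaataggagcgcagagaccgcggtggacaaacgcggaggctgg

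None of the 10 genes passed the test between CKO and WT (limma on log2(FPKM + 0.1), adjusted *p* under 0.05), where 0.065% of all genes tested did. Nor did any have an unadjusted *p* under 0.05, against 1022 of the 12305 genes. With the replicate block again none passed, against 2.81% of all genes, while 2 of 10 had an unadjusted *p* under 0.05 (*Cdk6* and *E2f1*), beside 2263 of the 12305 genes. The block takes libraries of 1 number as pairs, but numbers 2 and 3 are not told apart from each other. Differences within replicate numbers, given below, share this limit. By sign, 6 of the 10 genes were higher and 4 lower, and the median log2 fold change was 0.06, beside 0.0048 over all genes. Their median absolute log2 fold change was 0.214, beside 0.144 over all genes. No gene of the set was higher in all 3 CKO libraries than in all WT libraries, where 5.63% of all genes were, and 1 of 10 was lower in all 3, where 8.86% were. After quantile normalization 2 of 10 were lower in all 3, where 8.16% of all genes were. For 9 of the 10 the 95% interval of the fold change lay within 2-fold in either direction, the exception being *Cdkn2c*, and for 8 it lay within 1.5-fold, the others being *Cdk6* and *Cdkn2c*. The signs depended on the scaling, since 4 of 10 were higher after rescaling without globin genes, which moved the median of all genes to -0.10, and relative to that median the 10 genes lay at 0.05, beside 0.06 as deposited. A missed threshold does not show that levels were equal, and these intervals state how large a difference remains compatible with the libraries.

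**Figure D1:**
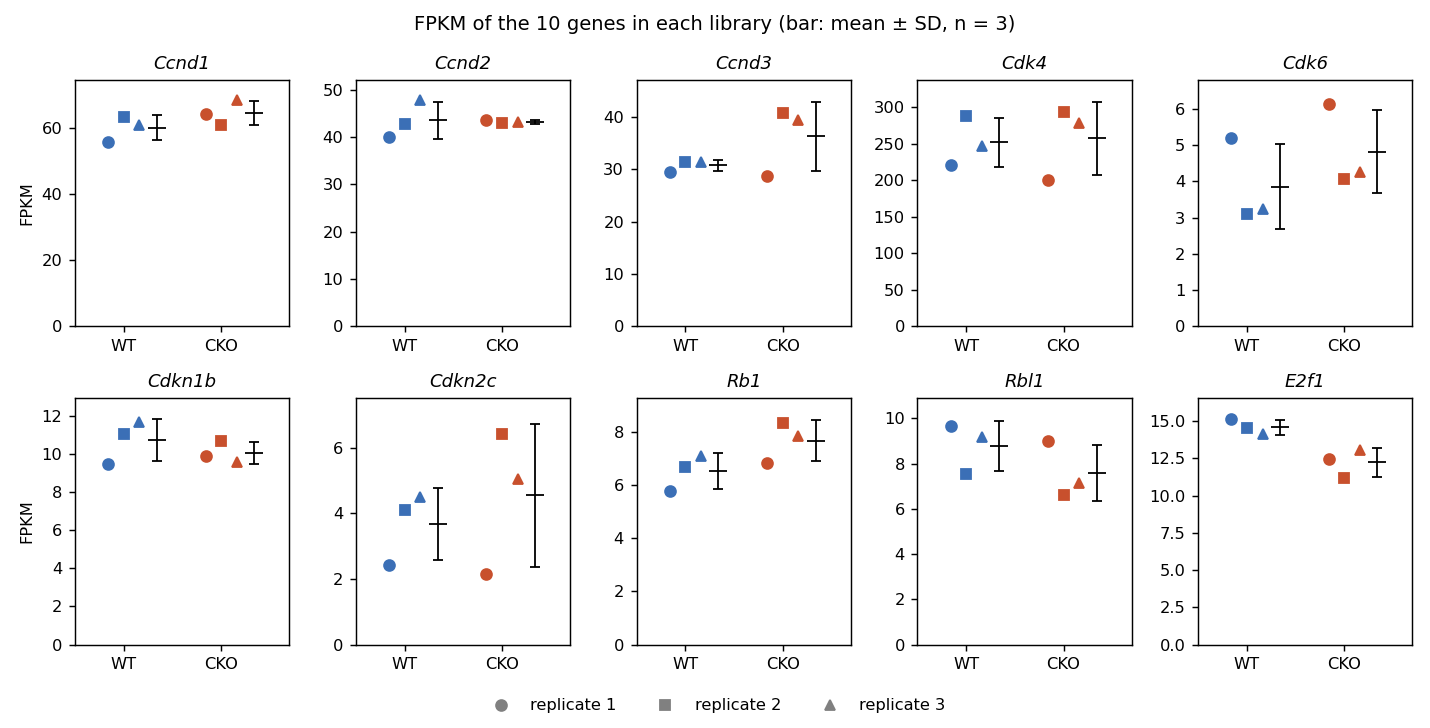
FPKM (y axis, from 0, a separate scale for each gene) of the 10 genes in the 3 WT (blue) and 3 CKO (red) libraries, with replicate 1, 2 and 3 as circle, square and triangle and the black bar as mean ± SD. *E2f1* is the one gene whose CKO points, 11.2 to 13.04 FPKM, all lie below the WT points, 14.1 to 15.1 FPKM.

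Levels in WT differed widely between the 10 genes. As FPKM is taken over the merged length of all annotated exons, the order of genes depends on these lengths. *Cdk4* stood highest, at 252 ± 33.3 FPKM (SD, n = 3), above 99.2% of the genes tested, and *Cdkn2c* lowest, at 3.67 ± 1.10 FPKM, above 31.8%. The D cyclins followed *Cdk4* in the order of their numbers, then came *E2f1*, *Cdkn1b*, *Rbl1*, *Rb1* and *Cdk6*. Neighbours in this order did not overlap between libraries, except *Cdkn1b* with *Rbl1* and *Cdk6* with *Cdkn2c* in WT. Within CKO the order of means was the same but for *Rb1* (7.69 ± 0.780 FPKM) and *Rbl1* (7.60 ± 1.25 FPKM), whose ranges overlapped, as did those of *Cdk6* and *Cdkn2c*.

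Among the D cyclins, the sensors of mitogens and limb growth factors, no RNA passed the test in either direction. *Ccnd1* (ENSMUSG00000070348, chr7:144929931-144939925, minus strand, GRCm38) is the best known as a target of growth factor signalling. Its level was 55.8, 63.1 and 61.0 FPKM in WT replicates 1, 2 and 3 and 64.1, 60.9 and 68.4 FPKM in CKO replicates 1, 2 and 3. The groups overlapped, since CKO replicate 2 lay below 2 of the WT libraries. The log2 fold change was 0.10 (SE 0.12, 95% interval -0.17 to 0.38, adjusted *p* = 0.867), and within replicate numbers the differences were 0.20, -0.05 and 0.17. Rescaling the libraries without their globin genes brought it to -0.0030.

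*Ccnd2* (ENSMUSG00000000184, chr6:127125162-127152193, minus strand) had nearly the same mean in both groups. WT libraries held 40.1, 42.7 and 47.9 FPKM and CKO libraries 43.7, 42.9 and 43.1 FPKM, so that the CKO values lay inside the WT range. Its log2 fold change was -0.0070 (SE 0.12, 95% interval -0.28 to 0.26, adjusted *p* = 0.993). Its sign changed with WT replicate 3 left out (0.06), and after rescaling without globin genes it was -0.11.

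*Ccnd3* (ENSMUSG00000034165, chr17:47505051-47599691, plus strand), the D cyclin that is prominent in blood and muscle lineages, split the CKO libraries. It was at 29.5, 31.4 and 31.4 FPKM in WT and at 28.8, 40.9 and 39.5 FPKM in CKO. CKO replicate 1 lay below all WT libraries and CKO replicates 2 and 3 lay above them all. The log2 fold change was 0.22 (SE 0.15, 95% interval -0.13 to 0.58, adjusted *p* = 0.770). With replicates 2 and 3 alone it was 0.36 (SE 0.13, adjusted *p* = 0.0554), which still did not pass, and after rescaling without globin genes it was 0.12.

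FPKM is scaled per length, here that of all annotated exons of a gene merged. It was 4709 bases for *Ccnd1*, 9409 for *Ccnd2* and 8775 for *Ccnd3*, and a transcript can be shorter. Shares in a pool, also those of the kinases and pocket proteins below, depend on these lengths and are compared between groups only. In WT replicate 1, *Ccnd1* had 4737 reads and *Ccnd3* 4673. *Ccnd1* made up 44.7% ± 1.27 of the summed D cyclin FPKM in WT and 44.8% ± 2.46 in CKO (exact two-sided permutation test, *p* = 1). *Ccnd2* went from 32.4% ± 1.56 to 30.1% ± 1.74 (exact *p* = 0.3) and *Ccnd3* from 22.9% ± 0.592 to 25.2% ± 3.68 (exact *p* = 0.4). The smallest *p* that 3 against 3 libraries allow is 0.1, so this test cannot pass 0.05, and after adjustment over the 8 quantities tested in this way all *p* values were 0.64 or more. For each of the 3 cyclins the shares of the groups overlapped.

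The kinases were far apart in level. *Cdk4* (ENSMUSG00000006728, chr10:127063534-127067920, plus strand) was at 221, 287 and 247 FPKM in WT and 200, 293 and 278 FPKM in CKO. Both its lowest and its highest value were in CKO, replicate 1 being the lowest library of each group. On the log2 scale the fold change was 0.02 (SE 0.20, 95% interval -0.44 to 0.48, adjusted *p* = 0.988), and it became -0.12 with quantile normalization and -0.09 after rescaling without globin genes.

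*Cdk6* (ENSMUSG00000040274, chr5:3341485-3531008, plus strand), the alternative partner of the D cyclins, was at 5.21, 3.11 and 3.24 FPKM in WT and 6.14, 4.07 and 4.26 FPKM in CKO. Replicate 1 was the highest library of each group, and the WT library of that number exceeded CKO replicates 2 and 3. For *Cdk6* the log2 fold change was 0.33 (SE 0.24, 95% interval -0.23 to 0.89, adjusted *p* = 0.792), and it ran from 0.15 without CKO replicate 1 to 0.56 without WT replicate 1. Compared within replicate numbers, CKO was above WT by 0.23, 0.38 and 0.38, and the 95% interval with the replicate block, 0.07 to 0.59, lay above 0, yet the adjusted *p* over all genes was 0.165. *Cdk6* gave 1.56% ± 0.654 of the summed *Cdk4* and *Cdk6* FPKM in WT and 1.95% ± 0.892 in CKO (exact *p* = 0.5). Within replicate numbers 1, 2 and 3 this share differed by 0.68, 0.299 and 0.212 percentage points.

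**Figure D2:**
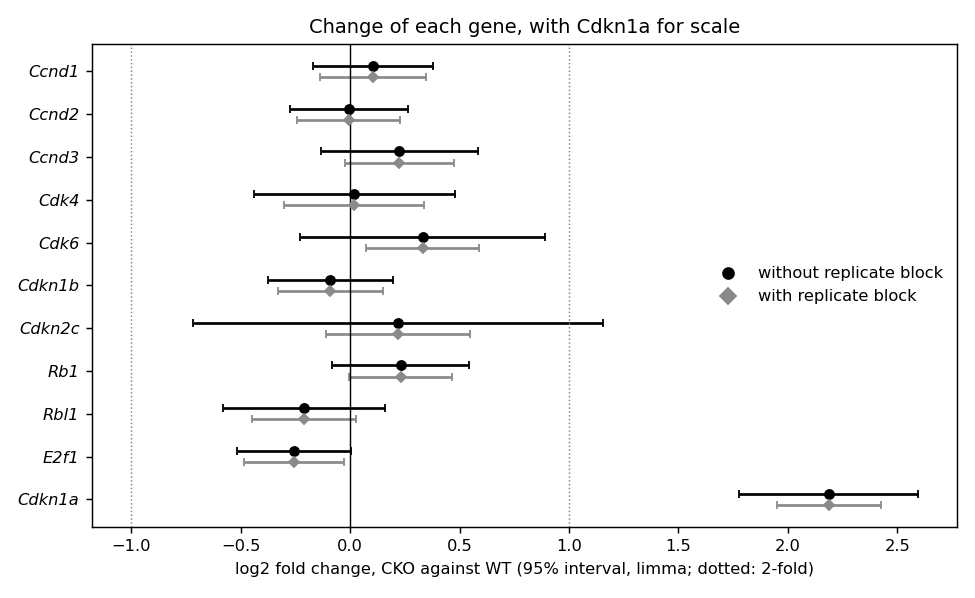
Log2 fold change of CKO against WT (x axis) with its 95% interval for the 10 genes and for *Cdkn1a*, without (black circles) and with (grey diamonds) the replicate block, the dotted lines marking 2-fold. The 10 genes lie between -0.26 (*E2f1*) and 0.33 (*Cdk6*), while *Cdkn1a* lies at 2.19.

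Of the inhibitors, *Cdkn1b* (ENSMUSG00000003031, chr6:134920401-134925513, plus strand), which encodes p27, was at 9.51, 11.1 and 11.7 FPKM in WT and 9.89, 10.7 and 9.58 FPKM in CKO. The CKO values lay within the WT range. CKO minus WT came to -0.09 on the log2 scale (SE 0.12, 95% interval -0.38 to 0.20, adjusted *p* = 0.890), and to -0.20 after rescaling without globin genes.

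*Cdkn2c* (ENSMUSG00000028551, chr4:109660876-109667189, minus strand), which encodes the INK4 protein p18, had the widest spread of the 10 genes. It was at 2.42, 4.09 and 4.49 FPKM in WT and at 2.16, 6.44 and 5.04 FPKM in CKO, from 117, 263 and 263 reads and 105, 331 and 323 reads. The replicate 1 library was the lowest of each group, and the other CKO libraries held the highest values of all. The log2 fold change was 0.22 (SE 0.40, 95% interval -0.72 to 1.15, adjusted *p* = 0.922). With replicates 2 and 3 alone, the difference was 0.40 (SE 0.14) and passed narrowly (adjusted *p* = 0.0493), as did 7.05% of all genes in the higher and 8% in the lower direction in that comparison, which has 2 libraries per group. It was the one gene of the 10 that passed there, and none passed in the lower direction. The difference within replicate number 1 was -0.16, and leaving out CKO replicate 2 or WT replicate 1 turned the log2 fold change to -0.10 and -0.05. After rescaling without globin genes it was 0.11. The log2 ratio of summed inhibitor FPKM (*Cdkn1b* and *Cdkn2c*) to summed D cyclin FPKM was -3.23 ± 0.146 in WT and -3.32 ± 0.217 in CKO (exact *p* = 0.7).

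The pocket proteins *Rb1* and *Rbl1* stood on opposite sides of 0 without passing the test. *Rb1* (ENSMUSG00000022105, chr14:73183673-73325822, minus strand), the retinoblastoma gene, was at 5.80, 6.70 and 7.12 FPKM in WT and 6.83, 8.36 and 7.87 FPKM in CKO. CKO replicate 1 fell inside the WT range and the other CKO libraries lay above it. On the log2 scale *Rb1* was higher by 0.23 (SE 0.14, 95% interval -0.08 to 0.54, adjusted *p* = 0.721), with differences of 0.23, 0.31 and 0.14 within replicate numbers. After rescaling without globin genes it was 0.12, and without WT replicate 1 it was 0.15.

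*Rbl1* (ENSMUSG00000027641, chr2:157145893-157204534, minus strand), which encodes p107 and carries the E2F word shown above, was at 9.67, 7.52 and 9.16 FPKM in WT and 9.01, 6.63 and 7.15 FPKM in CKO. The groups overlapped, but CKO lay below WT within each replicate number, by -0.10, -0.18 and -0.35. Its overall log2 fold change was -0.21 (SE 0.16, 95% interval -0.58 to 0.16, adjusted *p* = 0.804), with -0.12 without CKO replicate 2, -0.14 without WT replicate 1, and -0.34 without CKO replicate 1. As shares of the pocket protein FPKM, *Rb1* held 36.9% ± 3.84 in WT and 43.9% ± 5.40 in CKO (exact *p* = 0.2), *Rbl1* 49.5% ± 4.76 and 43.2% ± 6.004 (exact *p* = 0.3), and the third family member *Rbl2* 13.6% ± 0.931 and 12.9% ± 0.642 (exact *p* = 0.4). Within replicate numbers 1, 2 and 3 the *Rb1* share was higher in CKO by 5.07, 7.89 and 7.90 percentage points and the *Rbl1* share differed by -4.77, -7.01 and -7.09. A paired exact test of 3 pairs cannot give a *p* under 0.25, and these differences were not tested.

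*E2f1* (ENSMUSG00000027490, chr2:154559407-154569892, minus strand), the activator E2F at the end of the chain and itself known as an E2F target, was the one gene of the set whose groups did not overlap as deposited. Such a separation in the lower direction was seen in 8.86% of all genes. WT libraries held 15.1, 14.6 and 14.1 FPKM and CKO libraries 12.5, 11.2 and 13.04 FPKM. The means were 14.6 ± 0.498 and 12.2 ± 0.962 FPKM (n = 3 each). The log2 fold change was -0.26 (SE 0.11, 95% interval -0.52 to 0.0038), with an unadjusted *p* of 0.0527 and an adjusted *p* of 0.601 in limma. With the replicate block the interval was -0.49 to -0.03 and the adjusted *p* 0.218, so *E2f1* was not called. Its differences within replicate numbers were -0.28, -0.38 and -0.11, and leaving out any 1 library kept the log2 fold change between -0.30 and -0.19.

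The genes whose log2 values ran most like those of *Ccnd1* and *E2f1* over the 6 libraries are given as a description only. For *Ccnd1* they were *Tceal5* (Pearson r = 0.988), *Smarcd2* (0.976) and *Fkbp10* (0.976), and for *E2f1* they were *Mecr* (0.999), *Amt* (0.992) and *Ttc19* (0.991). *Mecr* was at 5.71, 5.56 and 5.29 FPKM in WT and 4.61, 4.12 and 4.90 FPKM in CKO, and its log2 fold change of -0.28 did not pass the test either (adjusted *p* = 0.601). Each r shares the libraries, their depth and their replicate structure, and these genes were picked as the highest of all genes tested.

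Around the core, 34 further genes of G1 control were listed, and 32 of them passed the filter, 23 higher and 9 lower in CKO. After rescaling without globin genes 11 of the 32 were higher. *Cdkn1a* alone passed the test. *Cdkn1a* (ENSMUSG00000023067, chr17:29090976-29100727, plus strand) encodes p21, the CIP/KIP inhibitor that p53 induces. Its level was 4.44, 6.60 and 5.59 FPKM in WT and 21.5, 26.5 and 28.3 FPKM in CKO, with a wide gap between the groups. *Cdkn1a* rose by 2.19 on the log2 scale (SE 0.18, adjusted *p* = 0.0101), and the 95% interval corresponded to 3.43- to 6.04-fold. The rise was 2.25, 1.99 and 2.32 within replicate numbers. Its adjusted *p* missed 0.05 with all genes kept (0.139), in an ordinary linear model (0.250), and on leaving out any of 3 libraries, WT replicate 3 (0.117), CKO replicate 2 (0.0782) and CKO replicate 3 (0.117), while the log2 fold change stayed between 2.04 and 2.32 with any 1 library left out.

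Of the other inhibitors, *Cdkn1c* and *Cdkn2d* were tested and neither passed. *Cdkn1c*, which encodes the imprinted inhibitor p57, was the more abundant, at 129, 278 and 239 FPKM in WT and 158, 219 and 219 FPKM in CKO, with a log2 fold change of -0.06 (SE 0.30). *Cdkn2d*, which encodes the INK4 protein p19, was at 7.12, 13.9 and 15.03 FPKM in WT and 7.30, 19.2 and 15.4 FPKM in CKO, with a log2 fold change of 0.18 (95% interval -0.75 to 1.11, adjusted *p* = 0.936). *Cdkn2a* and *Cdkn2b*, which share an INK4 locus, lay under the filter at 0.0288 and 0.159 FPKM in WT and 0.0297 and 0.164 FPKM in CKO, and were not tested. Beyond *Cdkn1a*, the largest and smallest changes of each list are given as the ends of its range. Among 10 further pocket, E2F and DP genes (6 higher, 4 lower, none called), *E2f2*, an activator relative of *E2f1*, had the highest value, with 10.3, 9.56 and 11.2 FPKM in WT and 10.5, 13.8 and 13.5 FPKM in CKO. Its log2 fold change was 0.27 (SE 0.14, adjusted *p* = 0.685), and with replicates 2 and 3 alone it passed (0.40, adjusted *p* = 0.0327). *E2f7*, a repressor E2F, had the lowest at -0.14 (adjusted *p* = 0.922).

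Cyclin E and A genes with their kinases and activators act just after the D cyclins, and none of these 8 genes was called (5 higher, 3 lower). They ran from -0.11 for *Cdk2*, the kinase of cyclins E and A, to 0.21 for *Cdk7*, part of the CDK-activating kinase. *Cdk2* was lower in all CKO libraries, at 20.3, 19.5 and 20.2 FPKM against 21.9, 22.2 and 20.4 FPKM, a difference that was small and not called (adjusted *p* = 0.855). Such a separation in the lower direction was seen in 8.86% of all genes, and after median-ratio scaling *Cdk2* no longer showed it. All 5 genes of cyclin and p27 turnover had positive values as deposited, from 0.0013 (*Fbxw7*, which targets cyclin E) to 0.14 (*Ambra1*, which targets D cyclins), and none was called. *Fbxw7* lay below the median of all genes (0.0048). Rescaling without globin genes moved that median to -0.10, and gave -0.10 for *Fbxw7* and 0.03 for *Ambra1*. Of the 6 MuvB and B-MYB genes, which act with the pocket proteins on cell cycle promoters, 5 were higher and 1 lower, from -0.08 (*Mybl2*) to 0.19 (*Lin37*), with no call.

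The 20 E2F target genes of S phase entry report the output of the chain. None passed the test, and none had an unadjusted *p* under 0.05 (5 had one with the replicate block, beside 2263 of the 12305 genes, and none was called), while 18 were higher and 2 lower, with a median log2 fold change of 0.19. After rescaling without globin genes 13 were higher and the median was 0.08, or 0.18 above the median of all genes, quantile normalization gave a median of 0.09, and without CKO replicate 2 again 13 were higher, with a median of 0.12. The median as deposited rested on replicates 2 and 3: within replicate numbers it was -0.07, 0.29 and 0.30. The highest was *Mcm10*, a replication initiation factor, at 15.6, 11.4 and 10.96 FPKM in WT and 15.6, 16.6 and 15.7 FPKM in CKO. Its log2 fold change was 0.35 (SE 0.15, adjusted *p* = 0.607), and with replicates 2 and 3 alone it was 0.52 (adjusted *p* = 0.0039). The lowest was *Tyms*, thymidylate synthase, at -0.11 (adjusted *p* = 0.922). With replicates 2 and 3 alone, 3 of the 20 passed, all higher (*Cdc6*, *Mcm7* and *Mcm10*), beside the 7.05% of all genes given above.

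The MCM helicase genes were looked at more closely after their values were seen. *Mcm2* had means of 43.9 ± 3.34 FPKM in WT and 52.0 ± 1.57 FPKM in CKO, *Mcm3* 73.9 ± 4.47 and 89.1 ± 5.38 FPKM, *Mcm4* 76.4 ± 4.63 and 91.6 ± 0.548 FPKM, and *Mcm5* 84.2 ± 7.54 and 97.5 ± 5.07 FPKM. In each of these 4 genes all CKO libraries exceeded all WT libraries, as they did in *Mcm10* and *Gins2*, so that 6 of 20 targets (30%) were without overlap against 5.63% of all genes. In the other helicase subunits the groups overlapped, with *Mcm6* at 75.5 ± 0.571 and 74.3 ± 5.35 FPKM (log2 fold change -0.03) and *Mcm7* at 98.7 ± 9.65 and 118 ± 16.6 FPKM (0.25). The count depended on the scaling: it was 25% after median-ratio scaling, 5% after quantile normalization and 0% after rescaling without globin genes, where all genes gave 6.24%, 5.97% and 2.47%. *E2f1* itself pointed the other way in the same libraries, and remained lower under each of these scalings (log2 fold change -0.36 to -0.25).

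**Figure D3:**
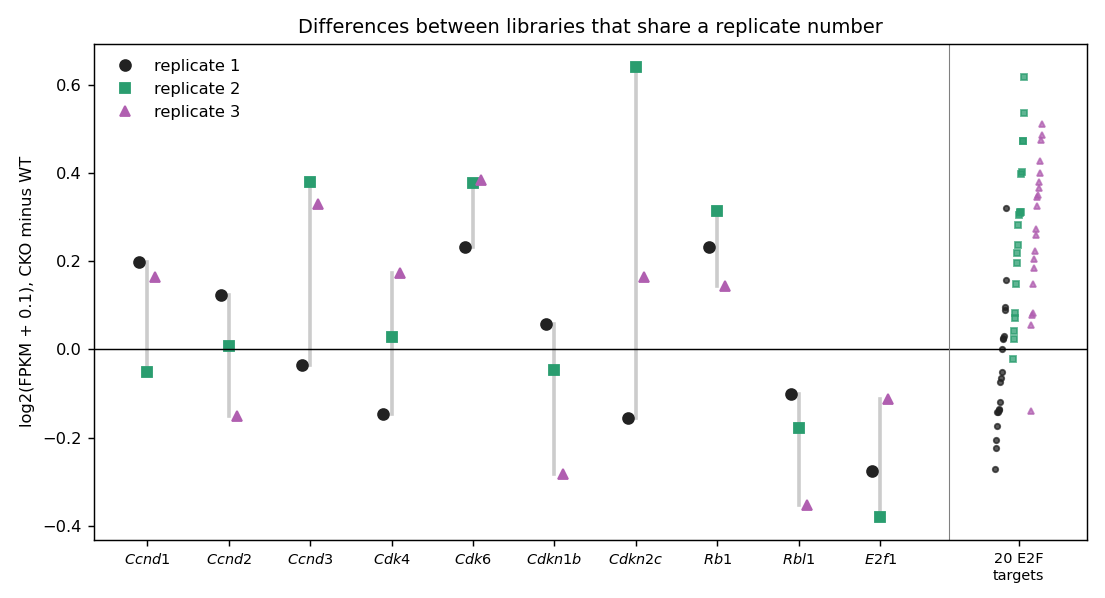
Difference in log2(FPKM + 0.1) between the CKO and WT libraries of the same replicate number (y axis) for each of the 10 genes and, at the right, for the 20 E2F target genes. *E2f1* and *Rbl1* are below 0 and *Cdk6* and *Rb1* above 0 for all 3 numbers, while the targets have medians of -0.07, 0.29 and 0.30 for replicates 1, 2 and 3.

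The wide spread of *Cdkn2c* and *Ccnd3* ran alongside the globin share of the libraries. Ordered by the share of globin genes in the summed FPKM, the libraries were CKO replicate 1 (11.7%), WT replicate 1 (13.7%), WT replicate 2 (19.5%), WT replicate 3 (20.6%), CKO replicate 3 (23.5%) and CKO replicate 2 (32.4%). *Cdkn2c* took the values 2.16, 2.42, 4.09, 4.49, 5.04 and 6.44 FPKM in that order and so rose at every step, as 170 of the 12305 genes (1.38%) did. *Ccnd3* took the values 28.8, 29.5, 31.4, 31.4, 39.5 and 40.9 FPKM. In the same order *Rb1* was at 6.83, 5.80, 6.70, 7.12, 7.87 and 8.36 FPKM and *Rbl1* at 9.01, 9.67, 7.52, 9.16, 7.15 and 6.63 FPKM. *Rb1* was thus highest and *Rbl1* lowest in CKO replicates 3 and 2. Across the same libraries, the erythroid regulator *Klf1* ran from 24.0 FPKM in CKO replicate 1 to 55.2 FPKM in CKO replicate 2. The 12 erythroid markers summed to 37853 to 64060 FPKM in WT and 30882 to 143030 FPKM in CKO, none at 0. In the order of globin share *E2f1* was at 12.5, 15.1, 14.6, 14.1, 13.04 and 11.2 FPKM. The part of blood cells in the values of *Cdkn2c*, *Ccnd3*, *Rb1*, *Rbl1* and *E2f1* was not tested.

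**Figure D4:**
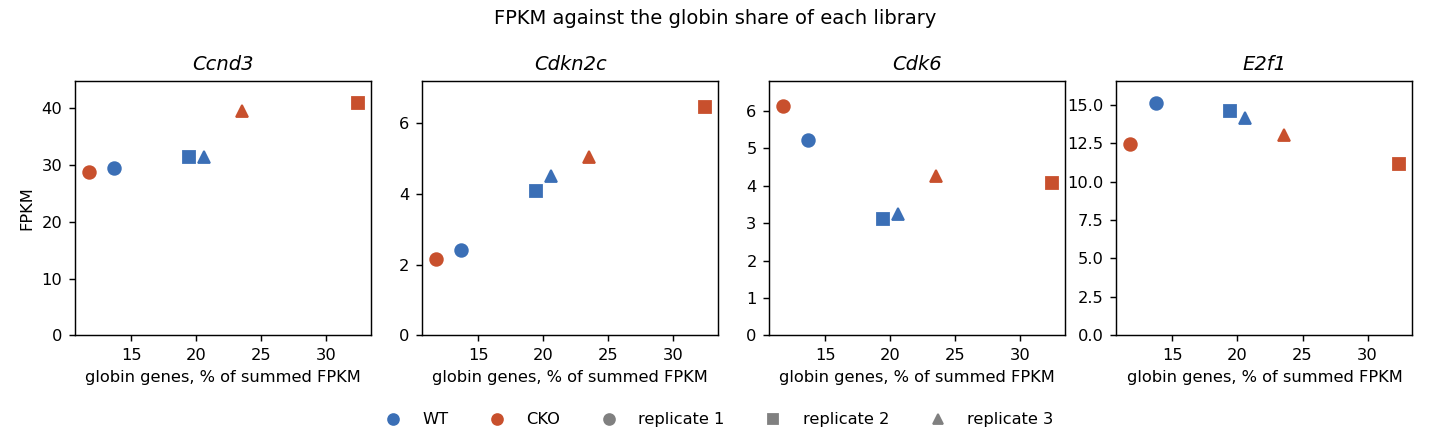
FPKM (y axis, from 0) of *Ccnd3*, *Cdkn2c*, *Cdk6* and *E2f1* against the percent of summed FPKM in globin genes (x axis) in the 6 libraries, with WT in blue, CKO in red and replicates 1, 2 and 3 as circle, square and triangle. *Cdkn2c* climbs from 2.16 to 6.44 FPKM with the globin share, *Cdk6* is highest in the replicate 1 libraries, and the CKO points of *E2f1* lie below all WT points.

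Other genes lie on the opposite strand over some exons, and the strand setting of the counting is not given in the sources used here. The bases shared amounted to 1100 for *Ccnd1*, 740 for *Ccnd2*, 361 for *Ccnd3*, 641 for *Cdk4*, 368 for *Cdk6*, 896 for *Rb1* and 273 for *Cdkn1a*, and to none for *Cdkn1b*, *Cdkn2c*, *Rbl1* and *E2f1*. Among other genes used above, *Gins2* shared 2758 of its 4097 exon bases in this way and *Rbl2* 1585 of 7558. *Ccnd3* also has a processed pseudogene that is 96.3% identical over 881 bases, so part of its reads is uncertain.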

How the data were processed

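Stranded mRNA libraries had been made from E11.5 limb buds, 3 of WT and 3 of CKO embryos. The authors deposited 1 table of FPKM for 22040 genes, and the submitters' processing notes name cutadapt 2.5, HISAT2 2.1.0, featureCounts 1.6.3 and the build mm10, among tools for other assays. The annotation is not given in the sources used here. Of the Ensembl identifiers, 99.9% were found in GENCODE vM21, which gave coordinates and exon lengths. Library sizes were fitted so that low FPKM values, times exon length, came to whole reads. With these sizes, whole reads (tolerance 0.1) were found in all 6 libraries for 92.6% of genes. Since whole reads were the aim of the fit, this is not a separate check of the annotation. The reads on listed genes came to between 17143043 and 24627734 per library, which was 1.11 and 1.03 times the library size in CKO replicates 2 and 3 and 0.947 to 0.968 times in the others; the reason was not tested. Other assays were not analysed here.

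The 12305 genes whose mean FPKM reached 0.5 were compared on log2(FPKM + 0.1) with limma 3.58.1 in R 4.3.3 (lmFit, eBayes with trend, two-sided), with Benjamini-Hochberg adjustment over all of them and a threshold of 0.05. Fold changes on this scale understate those of low genes. Shares within gene pools were compared by exact permutation. No count model was the main test, since the table holds FPKM. Replicates are numbered 1 to 3 in both groups, and the deviations from group means correlated across genes at 0.64, 0.44 and 0.27 for numbers 1, 2 and 3, each over 0.1, and libraries of 1 number were treated as pairs. Between different numbers, WT replicate 2 and CKO replicate 3 correlated at 0.49, WT replicate 3 and CKO replicate 2 at 0.31, and the rest at -0.60 to -0.37, so replicate 1 is set apart and numbers 2 and 3 are not told apart from each other. What a number stands for is not stated. The alternatives were other pseudocounts, filters, scalings and models, the replicate block, replicates 2 and 3 alone, limma voom on recovered reads, and each library left out. The counts without overlap under other scalings were added after the data were seen.

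The 10 genes and all lists were chosen with earlier results of these data known. Genes named are these 10, *Hnrnpk*, genes of each list past the threshold without or with the block, the highest and lowest of each list, and the 3 most like *Ccnd1* and *E2f1*. *Mcm2*, *Mcm3*, *Mcm4*, *Mcm5*, *Mcm7*, *Cdc6*, *Gins2*, *Mcm6*, *Cdkn2d*, *Klf1*, *Tbx5*, *Pitx1* and the genes under the filter were named after their values were seen. *Rbl2* is part of a pool fixed with the lists, and *Cdt1* and *Pola1* are named for their promoters.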

Additional observations from a re-analysis of the deposited data

How the results depend on the processing

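Of 190 values of the 10 genes under 19 alternatives, 179 kept their direction and their side of the threshold, 10 changed sign and 1 newly passed. The lowest adjusted *p* was 0.0493. With the replicate block 0 of the 10 genes, 1 of the other G1 genes (*Cdkn1a*) and 0 of the E2F targets were called, as without it. In log2(FPKM + 0.1) the block changed no call in these lists or for *Hnrnpk*, while over all genes the share called went from 0.065% to 2.81%. *Hnrnpk* passed in limma voom only with the replicate block (adjusted *p* = 0.286 without and 0.0223 with it). With replicates 2 and 3 alone the counts were 1 (*Cdkn2c*), 2 (*Cdkn1a* and *E2f2*) and 3 (*Cdc6*, *Mcm7* and *Mcm10*), the *Ccnd1* share of the D cyclins differed by -1.06 percentage points (0.106 with all libraries) and *Fbxw7* turned to -0.049. The other G1 genes gave 0 calls without the filter or in the ordinary linear model, and 0 to 1 with each library left out. Rescaling without globin genes gave -0.0030 for *Ccnd1*, -0.089 for *Cdk4*, -0.10 for *Fbxw7* and -0.0046 for *Smarcd2*, quantile normalization gave -0.12 for *Cdk4*, and median-ratio scaling gave 0.0042 for *Ccnd2*. With each library left out in turn, the log2 fold changes ran from -0.065 to 0.063 (*Ccnd2*), -0.086 to 0.19 (*Cdk4*), -0.10 to 0.67 (*Cdkn2c*), -0.39 to 0.16 (*Cdkn1c*), -0.37 to 0.086 (*E2f7*), -0.057 to 0.29 (*Ambra1*), -0.14 to 0.12 (*Fbxw7*), -0.18 to 0.057 (*Mybl2*) and -0.30 to 0.074 (*Tyms*). The *Ccnd1* share then ran from -0.973 to 1.45 percentage points, the *Cdk6* share of the kinases from -0.117 to 0.769, and the log2 ratio of inhibitors to D cyclins from -0.20 to 0.0079. The cause of these changes was not tested. Reads behind the 10 genes were fewest for *Cdkn2c*, at 105 to 331 per library.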
